A study of Drosophila melanogaster with 9 samples.

Results

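Heads of Drosophila melanogaster labelled as lacking Chd1 were compared with heads of flies in which the driver elav-Gal4 expressed a UAS-Chd1 transgene, across all genes. The libraries were chosen by their titles, 3 labelled Chd1[-/-] and 3 labelled elav-Gal4>UAS-Chd1, which make 6 of the 9 libraries of the series. The other 3 libraries, labelled Chd1[WT/WT], entered the fit and give a further level for orientation. All groups were virgin females aged 10 days, kept on cornmeal food, and RNA was taken from snap-frozen heads. The elav-Gal4 driver is active in neurons, so transgenic Chd1 was directed to neurons. The labels call the elav-Gal4>UAS-Chd1 flies (here elav>Chd1) rescued and do not state outright that they carry the deletion. Nor do they say whether libraries of one genotype were made from different pools. The p-values therefore rest on the spread among these libraries, and that spread may be technical.

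CHD1 is an ATP-dependent remodeller of the Snf2 type whose chromodomains bind methylated histone H3. It spaces nucleosomes behind elongating RNA polymerase II, and in flies it also places the variant histone H3.3 into the paternal genome after fertilization. Flies without it are viable, and the protein has been linked to polytene chromosome structure and to immunity of the gut.

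The deposited values are TPM (abundances per length of transcript, scaled to a fixed library total), so levels can be compared between genes, but sequencing depth is unknown. Libraries summed to 999685 to 999850 TPM. Genes with 1 TPM or more numbered 11142 to 11220 per library without Chd1, 9743 to 9787 with elav>Chd1 and 9159 to 9253 in wild type. The labels head and female were set against marker genes. Photoreceptor RNA was abundant, with the main opsin ninaE at 3372, 3434 and 3354 against 1440.2, 1414 and 1397 TPM in Chd1-deficient against elav>Chd1 libraries. RNA of other tissues was abundant as well, in both groups. The eggshell gene Vm34Ca stood at 10914, 9645 and 10189 against 11305, 9899 and 10252 TPM, and the summed level of 54 gut digestive enzymes was 11251 to 11888 TPM against 12658 to 13125 TPM. The 50 genes of the Y chromosome, which females lack, together held 7.33 to 9.95 TPM without Chd1, 0.133 to 0.208 TPM with elav>Chd1 and 0.428 to 0.621 TPM in wild type. The part of these other sources of RNA in the differences below was not tested. In whole-tissue RNA, fewer cells of a type and less RNA per cell cannot be told apart.

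Per-library levels below are in TPM in the order of libraries 1, 2 and 3, Chd1-deficient first and elav>Chd1 second unless stated otherwise. A fold change is the log2 difference of TPM + 0.5, Chd1-deficient minus elav>Chd1, and understates the change of low genes. A gene is called higher or lower when the Benjamini-Hochberg adjusted p of limma over 11094 tested genes is under 0.05.

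Chd1 (FBgn0250786; chromosome 2L, 2979562 to 2987723 in BDGP6.54) was examined first, to test the labels. Without Chd1 it stood at 18.2, 19.95 and 20.2 TPM, and with elav>Chd1 at 63.7, 63.1 and 63.7 TPM. The groups were far apart, and the elav>Chd1 level was also below the wild-type mean of 102 TPM. The difference was a log2 fold change of -1.68 with SE 0.0602 and limma adjusted p = 4.5e-09. For the same comparison -1.69 stands in the authors' deposited table. Chd1 transcript was thus still measured in the libraries labelled Chd1[-/-]. The neuronal RNA-binding gene elav, whose driver line expresses the transgene, stood at 3.37, 3.79 and 3.52 against 1.94, 1.89 and 1.92 TPM and was higher without Chd1 with a log2 fold change of 0.74 with SE 0.11. The eye pigment transporter w, which also marks many fly transgenes, stood at 1.996, 1.88 and 1.701 against 9.44, 9.86 and 11.1 TPM (wild-type mean 13.9 TPM) and was lower by a log2 fold change of -2.17 with SE 0.083.

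Across the transcriptome the comparison was lopsided in size but not in number. Of 11094 tested genes, 7583 (68.4%) were called, 3847 (34.7%) higher and 3736 (33.7%) lower in the Chd1-deficient libraries. The counts of every gene list below stand beside these shares. Among calls of at least 1 on the log2 scale, 1751 genes (15.8%) were higher and 170 (1.53%) lower. The median difference was -0.02, with quartiles of -0.21 and 0.50. Many calls were small, since 4256 of the called genes (56.1%) differed by less than 0.5, and the median standard error was 0.07. Libraries of the groups did not overlap in 7511 of the 7583 called genes, so separation is shared by nearly all calls. Direction went with level. Below a mean of 2 TPM over the 6 libraries, 70.2% of 1596 genes were higher and 6.27% lower, and the median was 0.96. Among 2282 genes from 2 to 10 TPM, 55% were higher and 14.9% lower. The balance turned at 10 to 50 TPM, where 19.6% of 4109 genes were higher and 48.4% lower. From 50 to 200 TPM the shares were 17.6% and 44.6% of 2384 genes, and at 200 TPM or more they were 34% and 33.7% of 723 genes. The filter bears on the low classes, since 1293 tested genes reached it through the Chd1-deficient libraries alone, and 1254 of them were higher. The shares beside which a gene list stands thus depend on the level of its members.

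**Figure D1:**
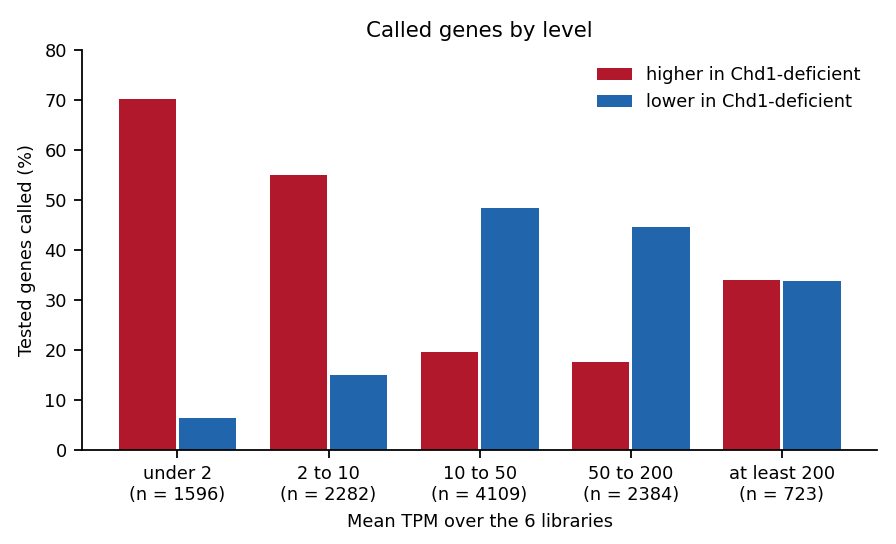
Share of tested genes called higher and lower in Chd1-deficient against elav>Chd1 libraries (percent of the genes of a class) by class of mean TPM over the 6 libraries. Higher calls hold 70.2% of the class under 2 TPM and 19.6% of the class from 10 to 50 TPM, where lower calls hold 48.4%.

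The largest rises were genes of male reproduction, immunity and unknown function. Under the naming rule (the 15 largest called differences in each direction among genes with at least 5 TPM in the higher group and no overlap between libraries), 3 of the 15 rises were genes of the Mst84D cluster, which encode sperm tail proteins. Mst84Da stood at 71.6, 64.4 and 63.5 against 1.63, 1.32 and 0.793 TPM, Mst84Dd at 44.6, 51.7 and 42.1 against 0.812, 0.792 and 0.994 TPM and Mst84Dc at 71.98, 76.5 and 66.8 against 2.68, 1.03 and 2.58 TPM. Their log2 fold changes were 5.29, 5.09 and 4.87, and the separation of the groups is required by the naming rule. Fbp2, a fat body protein gene, rose by 5.3, from 1.05, 0.5501 and 0.332 TPM to 42.8, 41.4 and 45.01 TPM. The cecropin CecC, the immune-induced peptide gene IM18 and Anp, an antibacterial peptide of the male ejaculatory duct, were also among the 15. So was the gene listed as lncRNA:CR44404, at 515, 399 and 536 against 20.95, 17.2 and 9.76 TPM, which BDGP6.54 annotates as protein-coding despite that symbol. CG43816 was listed at 0 in every elav>Chd1 library and at 23.3, 23.4 and 18.3 TPM in the Chd1-deficient ones. The remaining 6 carry only CG symbols (CG5172, CG31226, CG30430, CG42688, CG17298 and CG12699). Of these CG5172 differed most, 32.1, 36.6 and 32.5 against 0.163, 0.395 and 0.08001 TPM with a log2 fold change of 5.61 with SE 0.21.

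Falls of comparable size were rare. CG13159 stood at 0.655, 0.4898 and 0.219 against 112, 94.7 and 103 TPM, a log2 fold change of -6.79 with SE 0.17, CG31813 at 0.329, 0.128 and 0.451 against 37.2, 34.6 and 38.04 TPM and CG9184 at 1.15, 0.641 and 0.531 against 43.03, 43.02 and 44.6 TPM. Each of these was at most 1.15 TPM in every Chd1-deficient library, and wild type lay between the groups, with wild-type means of 33.5, 15.5 and 20.02 TPM. Of the histone genes, His1:CG33837 had a listed level of 0 in each Chd1-deficient library against 81.6, 60.5 and 119 TPM, and His1:CG33816 stood at 0, 7.53 and 0 against 37.6, 81.7 and 31.04 TPM. These are 2 of many near-identical histone gene copies, among which reads can be split in any proportion, so their values are uncertain. Developmental genes made up part of the list. Osi6, of the Osiris family, Lcp1, a larval cuticle protein, and ImpE2, an ecdysone-inducible gene of imaginal discs, fell by 3.57, 3.23 and 3.21, with elav>Chd1 levels of 8.69, 7.86 and 7.93 TPM, 11.9, 15.1 and 17.5 TPM and 5.19, 5.46 and 5.098 TPM. The other falls of the rule were CG18853, CG10591, CG14756, CG31683, CG14110, CG12011 and snoRNA:CG31191-a, the last listed at 0 in the Chd1-deficient libraries.

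**Figure D2:**
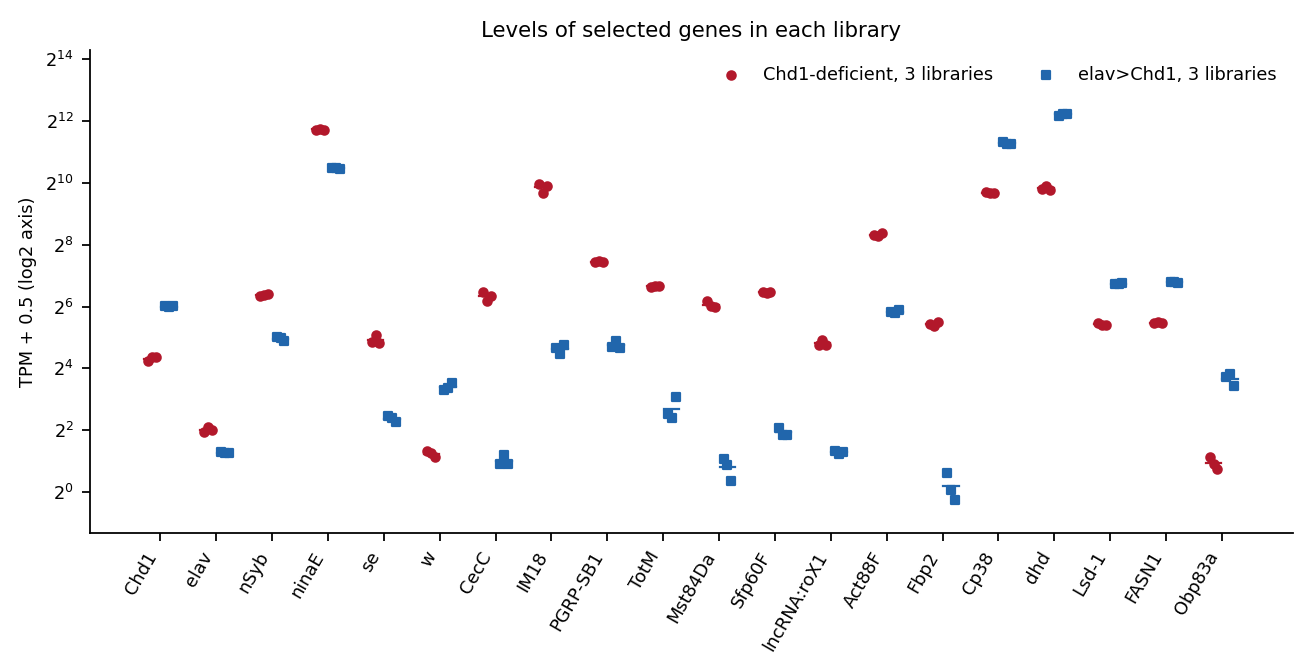
Level of 20 genes named in the text (TPM, log2 axis) in each of the 3 Chd1-deficient and 3 elav>Chd1 libraries, 1 point per library. The libraries of a genotype lie close together, and for genes such as CecC, IM18 and dhd the genotypes are separated by more than their own spread. For CecC and IM18 the naming rule required this separation.

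Innate immunity in flies rests on secreted antimicrobial peptides, whose genes are switched on through the Toll and Imd pathways after peptidoglycan recognition. The peptides were the part of this system that stood highest in the Chd1-deficient libraries. Of 43 antimicrobial and immune-induced peptide genes in the files, 40 passed the filter, 4 of them by their Chd1-deficient level only. Among those 40, 38 were higher, 29 of them by at least 1, 1 was lower and 1 was not called, with a median of 2.44 (all genes 34.7% higher, median -0.02). Their summed level was 15351 to 16680 TPM against 4679 to 4713 TPM. IM3, the most abundant, stood at 3386, 2972 and 3170.2 against 1058, 894 and 942 TPM, and IM18 at 1005, 819.6 and 943 against 25.1, 21.4 and 26.7 TPM, a log2 fold change of 5.21 with SE 0.199 and limma adjusted p = 7.1e-09. CecC, which lyses bacterial membranes, stood at 87.9, 72.2 and 81.2 against 1.401, 1.83 and 1.37 TPM, a log2 fold change of 5.32 with SE 0.13. The 11 attacin, cecropin, diptericin and drosocin genes are classical readouts of the Imd pathway and a subset defined after values were seen. All were higher, with a median of 3.89 and a range of 1.62 to 5.32. For 2 of these 11 only the Chd1-deficient level was high enough for testing, which favours a higher call. DptA, a diptericin chosen after its values were seen, stood at 429, 409 and 396 against 24.6, 21.8 and 21.2 TPM. The antifungal gene Mtk, also chosen after its values were seen, stood at 735, 653 and 711 against 47.98, 51.1 and 47.2 TPM, with a log2 fold change of 3.83 with SE 0.078. The antifungal drosomycin gene Drs, a Toll readout, differed less, at 2043, 1910.4 and 1999.8 against 1231, 1283 and 1323 TPM, a log2 fold change of 0.63 with SE 0.054. The defensin gene Def differed by 0.3994. The drosomycin relative Drsl4 was the list's single lower member, at 38.5, 39.6 and 27.5 against 105, 91.9 and 97.5 TPM with a log2 fold change of -1.48 with SE 0.13. Both were named after values were seen.

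Recognition proteins were mostly higher too, and the signalling chains were mixed. Of 14 tested immune recognition proteins (15 in the files), 11 were higher, 2 lower and 1 not called, with a median of 0.61. The lower count was 1 without Chd1-deficient library 1 or elav>Chd1 library 2. PGRP-SB1, a secreted peptidoglycan-degrading amidase, stood at 172, 177 and 174 against 25.3, 28.98 and 24.7 TPM, PGRP-SD, a secreted sensor, at 19.02, 19.9 and 19.02 against 3.36, 4.51 and 3.06 TPM, and GNBP-like3 at 192, 198 and 197 against 44.1, 41.3 and 45.4 TPM. All 3 pairs of groups were separated, with log2 fold changes of 2.71, 2.27 and 2.15. Of the 11 Imd pathway signalling genes, 2 were higher, 5 lower and 4 not called, with a median of -0.13. The higher members were pirk, a feedback inhibitor of the pathway (8.85, 9.38 and 9.21 against 3.77, 3.496 and 3.85 TPM, log2 fold change 1.198), and akirin, a nuclear cofactor of Relish (0.096, limma adjusted p = 0.020). The adaptor gene Fadd fell by 0.43 and the kinase gene IKKbeta by 0.26. Rel, the NF-kappaB factor of the pathway, chosen after its values were seen, stood at 27.9, 29.8 and 29.1 against 30.6, 32.7 and 32.2 TPM and differed by -0.14. These small calls moved with the processing, since akirin lost its call under median-ratio scaling and without any 1 of 3 libraries (Chd1-deficient 2, elav>Chd1 2 or 3). The lower count was 9 under median-ratio scaling and 3 without Chd1-deficient library 1 or elav>Chd1 library 2 or 3.

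In the Toll pathway, 7 of 15 genes were higher and 6 lower (median 0.20). The balance turned with a filter of at least 10 TPM in 3 libraries, to 3 higher and 6 lower of 10 (median -0.20), and under median-ratio scaling, to 6 higher and 7 lower. The higher members included proteases that act outside the cell, SPE (30.2, 29.9 and 32.04 against 13.8, 14.2 and 12.5 TPM), which cleaves the ligand Spätzle, and Hayan (9.54, 9.59 and 9.71 against 4.88, 4.46 and 4.36 TPM), and the serpin nec (45.3, 47.7 and 46.3 against 25.2, 25.3 and 24.1 TPM), with log2 fold changes of 1.16, 0.9983 and 0.89. The ligand gene spz fell by 0.26 and the inhibitor gene cact, the fly IkappaB, by 0.18. The Turandot genes, secreted stress peptides induced through JAK-STAT, were high. TotM stood at 99.8, 101 and 102 against 5.24, 4.78 and 7.88 TPM, TotA at 176, 187 and 199 against 59.8, 59.3 and 67.5 TPM and TotX at 14.6, 15.8 and 15.03 against 6.24, 5.89 and 4.95 TPM, with log2 fold changes of 4.001, 1.58 and 1.34. Wild-type means were 18.8, 168 and 9.83 TPM, so for each of these genes the elav>Chd1 libraries lay below the wild-type mean as well. Summed over the Turandot genes, a subset defined after values were seen, levels were 383.2 to 413.9 TPM against 114 to 124.4 TPM. The same sum was 292.7 to 323.3 TPM in wild type. Over the list of 18 Turandot genes and JAK-STAT targets, 8 of 12 tested were higher and 3 lower (median 0.95, 0.59 over 10 genes with the 10 TPM filter and 0.29 over 17 with no filter), among them vir-1, a virus-induced gene, which fell by 0.17. Markers of hemocytes, the blood cells, did not share the direction of the peptides. Of 12 tested (19 in the files), 2 were higher and 6 lower (median -0.08), and summed levels were 1809.5 to 1819 TPM against 1885 to 1970.4 TPM. The crystal cell enzyme gene PPO1 fell by 0.78 and the GATA factor gene srp by 0.56, while the melanization protease gene MP1 rose by 0.63.

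Neuronal genes were higher in the Chd1-deficient libraries. All 15 pan-neuronal markers were called higher, 10 of them by at least 1, with a median of 1.15 and summed levels of 303.5 to 324.7 TPM against 137.1 to 139.9 TPM (wild type 73.7 to 82.5 TPM). Appl, the fly amyloid precursor protein, stood at 40.2, 43.5 and 40.9 against 14.2, 14.1 and 14.5 TPM, and fne, an RNA-binding relative of elav, at 37.98, 39.7 and 38.96 against 14.1, 13.9 and 13.4 TPM. The vesicle protein gene nSyb, neuronal synaptobrevin, stood at 81.2, 82.3 and 84.1 against 31.9, 30.9 and 29.1 TPM, a log2 fold change of 1.42 with SE 0.044 and limma adjusted p = 1.7e-09. In each of these the elav>Chd1 libraries lay between the Chd1-deficient libraries and the wild-type means of 8.07, 7.11 and 15.5 TPM. Rbp9, a further elav relative, differed least of the named markers, by 0.56.

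By role at the synapse, the machinery that releases transmitter came first. Of 29 genes, 20 were higher, 3 lower and 6 not called, with a median of 1.08 (2 reached the filter by the Chd1-deficient libraries alone). With the 10 TPM filter 13 were higher and 3 lower of 22, with a median of 0.67. Snap25 stood at 39.2, 41.02 and 40.2 against 13.03, 14.2 and 13.3 TPM, the calcium sensor Syt7 at 13.8, 14.8 and 14.1 against 4.83, 5.14 and 5.54 TPM and Sap47 at 96.96, 103 and 98.5 against 44.5, 45.9 and 44.6 TPM. The active zone scaffold gene brp, chosen after its values were seen, stood at 8.17, 9.61 and 8.69 against 3.26, 3.49 and 3.22 TPM. The vesicle chaperone gene Csp, the most abundant member, overlapped between groups at 118, 128 and 121 against 122, 127 and 125 TPM. The 3 lower members, named after values were seen, were AP-2alpha, Dap160 and Liprin-alpha, at -0.40, -0.16 and -0.25.

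Ion channels, receptors and transmitter enzymes had similar medians. Of 26 voltage-gated channel genes, 22 were higher and 2 lower (median 1.03, 1 through the Chd1-deficient libraries alone). The sodium channel gene para stood at 16.6, 17.3 and 15.8 against 6.56, 6.41 and 6.48 TPM, the potassium channel gene Sh at 33.8, 35.7 and 33.7 against 14.03, 13.5 and 13.95 TPM and its subunit gene Hk at 21.2, 23.3 and 21.5 against 8.11, 8.203 and 8.91 TPM. The inward rectifier gene Irk1, also used in other tissues, fell by 0.47. Of 24 tested transmitter synthesis and transport genes, 21 were higher and 1 lower (median 1.02, 4 through the Chd1-deficient libraries alone). Gad1, which makes GABA, stood at 39.8, 42.5 and 41.9 against 13.8, 15.9 and 14.01 TPM. The tyrosine hydroxylase gene ple, needed for dopamine and for cuticle tanning, stood at 26.6, 28.6 and 27.6 against 6.49, 6.49 and 7.05 TPM, and e, which conjugates beta-alanine to dopamine and histamine, at 9.12, 8.46 and 8.59 against 2.09, 1.91 and 1.81 TPM. The last 2 differed most within the list, by 1.97 and 1.92.

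Of 10 nicotinic acetylcholine receptor subunit genes, 8 were higher and 2 lower (median 1.01). nAChRbeta1 stood at 45.4, 50.98 and 47.5 against 22.1, 25.7 and 22.4 TPM and nAChRalpha6 at 18.03, 18.8 and 17.7 against 6.94, 6.78 and 7.17 TPM. nAChRalpha4 went the other way, at 21.8, 23.4 and 21.3 against 31.7, 33.2 and 34.2 TPM with a wild-type mean of 41.6 TPM, a log2 fold change of -0.57 with SE 0.079 and limma adjusted p = 0.00011. The number of lower subunits was 1 in 4 of the fits without 1 library (Chd1-deficient 1 or elav>Chd1 1, 2 or 3). Of 18 tested GABA and glutamate receptor genes, 13 were higher and 1 lower (median 0.90, 5 through the Chd1-deficient libraries alone), led by the GABA receptor gene Rdl at 21.4, 22.9 and 22.1 against 8.11, 8.28 and 8.32 TPM. The 16 tested monoamine receptors of 22 in the files were all called higher (median 0.76), but 9 of them reached the filter by the Chd1-deficient libraries alone, and 1 was left with the 10 TPM filter. Of all tested genes under 2 TPM 70.2% were higher (median 0.96), and of those from 2 to 10 TPM 55% (median 0.39). DopEcR, which responds to dopamine and ecdysone, stood at 12.4, 15.1 and 14.3 against 5.64, 5.91 and 5.47 TPM and Octbeta1R, an octopamine receptor, at 2.69, 3.303 and 3.05 against 0.799, 1.09 and 1.06 TPM.

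Neuropeptide precursors spanned a wide range. Of 43 tested (48 in the files, 5 through the Chd1-deficient libraries alone), 36 were higher, 3 lower (5 without elav>Chd1 library 1) and 4 not called, with a median of 0.85. SIFa, made by a small set of brain neurons and linked to feeding and courtship, had the largest difference, at 41.6, 44.1 and 38.1 against 5.74, 4.77 and 3.59 TPM, a log2 fold change of 3.02 with SE 0.17 and limma adjusted p = 1.1e-07. The insulin-like peptide genes Ilp3 and Ilp5, expressed in the insulin-producing cells of the brain, stood at 33.7, 31.8 and 32.4 against 7.79, 7.34 and 7.41 TPM and 41.6, 44.95 and 50.7 against 11.2, 12.5 and 12.9 TPM, with log2 fold changes of 2.05 and 1.86. Eh, eclosion hormone, stood at 4.76, 4.34 and 3.697 against 0.518, 0.936 and 0.339 TPM. The 2 most abundant precursors, Nplp2 and Nplp3, stood at 3416, 3544 and 3614 against 1658, 1590.4 and 1549.8 TPM and 2574, 2426 and 2469.6 against 760.1, 739.7 and 741 TPM, and Nplp3 was far lower in wild type (mean 176 TPM). The lower members, named after values were seen, were CNMa, Ilp7 and Ilp8, at -0.77, -0.46 and -0.27. Of 36 peptide hormone receptors only 14 reached the filter, 4 of them through the Chd1-deficient libraries alone. Of the 14, 8 were higher and 2 lower (median 0.35). The adipokinetic hormone receptor gene AkhR, used in the fat body, fell by 0.48.

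Learning and memory genes were less one-sided, with 10 of 18 tested higher, 1 lower and 7 not called (median 0.21). Under median-ratio scaling 4 were lower, and with the 10 TPM filter 3 of 11 were higher and 1 lower (median -0.01). The GTPase gene Rgk1 stood at 5.92, 6.45 and 5.84 against 1.296, 1.27 and 1.604 TPM and the transcription factor gene ey at 3.52, 3.296 and 3.58 against 1.57, 1.22 and 1.51 TPM, while Fmr1 and CaMKII, the most abundant members, overlapped between groups at 104, 109 and 106 against 108, 110.2 and 109 TPM and 64.6, 68.1 and 69.1 against 65.7, 68.1 and 69.3 TPM. Of 17 glial markers, 11 were higher and 2 lower (median 0.43), and with the 10 TPM filter 4 of 9 were higher and 2 lower (median 0.092). The glutamine synthetase gene Gs2 stood at 208, 227 and 210.0 against 104, 100.1 and 96.6 TPM and the astrocyte gene alrm at 3.75, 4.87 and 4.02 against 1.28, 1.03 and 1.18 TPM, with log2 fold changes of 1.098 and 1.502. The 2 lower markers, named after values were seen, were Tret1-1 and zyd, at -0.28 and -0.23. Activity-regulated genes had 6 of 11 tested higher and 3 lower (median 0.33), with the capsid-like gene Arc1 at 309, 310.4 and 310.0 against 173, 172 and 174 TPM. With the 10 TPM filter their balance turned to 2 higher and 3 lower of 6 (median -0.14), and without elav>Chd1 library 3 the median was 0.22.

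Genes of the eye were higher as well. Of 36 tested phototransduction genes (38 in the files), 31 were higher, 21 of them by at least 1, 1 was lower and 4 were not called, with a median of 1.10 and summed levels of 7025 to 7227 TPM against 3137 to 3147 TPM. Under median-ratio scaling 3 were lower. All 6 tested opsins were higher, with a median of 1.38. The opsins of the inner photoreceptors, Rh5 and Rh6, stood at 31.9, 33.3 and 35.2 against 5.72, 6.84 and 6.29 TPM and 58.6, 55.9 and 53.1 against 11.96, 12.7 and 11.5 TPM, with log2 fold changes of 2.33 and 2.17. The opsin ninaE of the outer photoreceptors, whose levels are given above, differed by 1.26. The arrestin gene Arr1, which ends the light response, stood at 825, 854 and 841 against 291, 304 and 307 TPM, a log2 fold change of 1.48 with SE 0.029 and limma adjusted p = 8.4e-11. The beta-carotene oxygenase gene ninaB, needed to make the chromophore, stood at 6.303, 7.38 and 6.86 against 1.38, 1.58 and 2.27 TPM.

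Eye pigment genes were divided between both directions. Of 21 tested, 8 were higher, 8 lower and 5 not called (76.2% called against 68.4% over all tested genes, median -0.09). With the 10 TPM filter 5 were higher and 9 lower of 17 (median -0.20). The drosopterin genes se and Pu stood at 28.7, 33.5 and 27.7 against 5.02, 4.74 and 4.34 TPM and 65.1, 68.4 and 69.5 against 12.4, 13.1 and 13.2 TPM, log2 fold changes of 2.55 and 2.35, while pr, of the same pteridine pathway, differed by 0.295. The transporter gene w was the single member lower by at least 1, and red overlapped between groups. Clock genes were balanced at 5 higher, 5 lower and 5 not called, and their share of calls (66.7%) was near that over all tested genes (68.4%). The clock gene tim stood at 17.5, 18.7 and 19 against 5.35, 5.16 and 5.03 TPM (log2 fold change 1.73), the clock neuron peptide gene Pdf at 20.9, 20.1 and 20.99 against 12.4, 12.5 and 11.7 TPM (0.74) and the clock-controlled feeding gene to at 8.56, 10 and 9.54 against 16.8, 14.5 and 13.4 TPM (-0.64). The kinase gene dco fell by 0.13 (limma adjusted p = 0.032), a call lost without Chd1-deficient library 1 or 2 or elav>Chd1 library 2 or 3.

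Odorant-binding proteins held large differences in both directions. Of 50 genes 30 were tested, 4 of them through the Chd1-deficient libraries alone. Of the 30, 19 were higher and 9 lower, with 11 and 7 past 1 on the log2 scale. Their median was 0.62, and 0.18 over 46 genes with no filter. Obp99b stood at 114, 113 and 116 against 7.08, 6.47 and 5.71 TPM, a log2 fold change of 4.06 with SE 0.095, Obp56e at 153, 142 and 138 against 19.8, 16.4 and 22.6 TPM and Obp44a at 516, 492 and 500.2 against 153, 146 and 149.9 TPM. Obp51a, which is expressed in the male tract, stood at 20.4, 18.4 and 19.95 against 0.715, 1.05 and 1.41 TPM. Among the 9 lower members, 5 were named after values were seen. Obp83a stood at 1.696, 1.37 and 1.18 against 12.7, 13.6 and 10.2 TPM, Obp83b at 2.72, 1.52 and 1.23 against 12.3, 10.04 and 13.01 TPM and Obp19a at 1.96, 2.07 and 1.54 against 5.92, 7.87 and 7.74 TPM. The pheromone-binding protein gene lush, at 0.623, 0.388 and 0.256 against 1.05, 1.54 and 2.28 TPM, and Obp57a, at 25.4, 23.6 and 26.7 against 58.2, 65.95 and 62.2 TPM, complete these 5, and their differences ran from -2.73 to -1.18. Of 178 olfactory, gustatory and ionotropic receptor genes only 6 reached the filter, and the most abundant, Ir7c, stood at 13.6, 13.5 and 13.5 against 13.7, 14.95 and 14.4 TPM.

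RNA of the male reproductive tract was higher in the Chd1-deficient libraries, although the labels name females. Of 54 sperm and testis genes 39 were tested, 21 of them through the Chd1-deficient libraries alone. Of the 39, 35 were higher, 33 by at least 1, and 2 were lower, with a median of 3.57 and summed levels of 619.6 to 650.9 TPM against 90.1 to 94.5 TPM (wild type 143.7 to 149.5 TPM). With no filter on low values 46 of 53 were higher and 2 lower, and the median was 1.91. Mst87F, a sperm tail protein gene, stood at 85.5, 69.1 and 71.8 against 2.34, 2.39 and 2.03 TPM. Mst85C was the exception among the named members, at 47.1, 48.1 and 47.98 against 53.7, 56.5 and 55.6 TPM, and fell by 0.21. Of 67 accessory gland and seminal fluid genes 53 were tested (21 through the Chd1-deficient libraries alone), and all 53 were called higher, 49 by at least 1, with a median of 2.97 and summed levels of 1324 to 1433 TPM against 94.7 to 105.8 TPM (wild type 257.8 to 272.0 TPM). Sfp60F stood at 88.97, 86.2 and 88.2 against 3.72, 3.11 and 3.11 TPM, Sfp87B at 69.8, 77.9 and 72.8 against 2.002, 2.75 and 3.55 TPM and Mst57Db at 209.8, 189.8 and 221 against 14.4, 13.9 and 6.69 TPM. Acp95EF stood at 182, 165 and 191 against 15.6, 10.5 and 9.66 TPM, with a wild-type mean of 36.5 TPM. The order was the same for these 4 genes, lowest in elav>Chd1, higher in wild type and highest without Chd1.

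RNAs of dosage compensation, by which males raise transcription of their X chromosome, went the same way in part. Of 9 tested, 3 were higher and 4 lower (2 lower without Chd1-deficient library 1 or elav>Chd1 library 2, and 1 higher and 5 lower of 7 with the 10 TPM filter). lncRNA:roX1, a noncoding RNA of the male-specific complex, stood at 26.4, 29.6 and 26.6 against 2.03, 1.87 and 1.94 TPM (wild-type mean 1.98 TPM), a log2 fold change of 3.52 with SE 0.0995 and limma adjusted p = 8.3e-10, and lncRNA:roX2 at 3.78, 4.91 and 4.82 against 0.133, 0.468 and 0.106 TPM. The male-specific subunit gene msl-2 rose by 0.37, while Clamp and msl-3 fell by 0.21 and 0.12. Both of these small falls were lost in some fits without 1 library, Clamp without Chd1-deficient 1 or elav>Chd1 2, and msl-3 without Chd1-deficient 1 or any elav>Chd1 library and with a replicate block (limma adjusted p = 0.052). None of the 13 genes of the Y chromosome list reached the filter, and CG41561, the most abundant, stood at 1.09, 0.643 and 0.816 against 0.02396, 0.0241 and 0 TPM. Of the sex determination genes, 4 of 14 were higher and 7 lower, where fru rose by 0.48 and the 3 others higher were the yolk protein genes. Secretions of the female spermatheca and oviduct split, with 7 of 13 higher and 5 lower (median 0.28, 0.087 over 10 genes with the 10 TPM filter). CG18067 stood at 679.6, 666 and 690.4 against 118, 121 and 125 TPM and CG9897 at 17.3, 16.3 and 17.9 against 70.6, 72.7 and 72.7 TPM, log2 fold changes of 2.48 and -2.04.

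Muscle genes were higher by smaller steps. Of 35, 27 were higher, only 4 of them by at least 1, 3 lower (5 under median-ratio scaling) and 5 not called, with a median of 0.46. Actin of the indirect flight muscle, Act88F, stood at 316, 313 and 331 against 56.1, 55.3 and 58.2 TPM, a log2 fold change of 2.49 with SE 0.035 and limma adjusted p = 1.9e-11, and flightin, fln, of the same muscle at 162, 170.1 and 162 against 51.3, 51.1 and 48.9 TPM. These muscles lie in the thorax. The light chain genes Mlc1 and Mlc2 stood at 989, 996 and 987 against 582, 558 and 564 TPM and 826, 858 and 862 against 429, 436 and 438 TPM, with log2 fold changes of 0.8017 and 0.97, and the myosin heavy chain gene Mhc, chosen after its values were seen, at 245, 257 and 252 against 153, 157 and 157 TPM. Wild-type means of the 3 were 154, 131 and 41 TPM, below both groups. The lower members, named after values were seen, were Mef2, Mf and Zasp66, at -0.16, -0.30 and -0.21.

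Cuticle proteins showed large differences in both directions. Of 124 genes 50 were tested, 17 through the Chd1-deficient libraries alone, and 35 were higher, 24 by at least 1, and 6 lower, with a median of 0.94. That median was 1.47 over 18 genes with the 10 TPM filter and 0.16 with no filter. Acp1, an adult cuticle protein, stood at 713, 712 and 699 against 115.3, 109 and 103 TPM and Cpr62Bc at 73.4, 72.9 and 74.8 against 4.71, 4.45 and 4.87 TPM. Ccp84Ab, at 12.2, 12.4 and 15.5 against 0.233, 0.0977 and 0.229 TPM, and Cpr97Ea, at 19.2, 19.8 and 19 against 0.638, 1.04 and 0.701 TPM, were near 0 in elav>Chd1. Next to the larval gene Lcp1 given above, Cpr65Ea (0, 0 and 0.448 against 4.64, 2.47 and 3.06 TPM) and TwdlF (0.0448, 0.248 and 0 against 2.09, 2.19 and 2.15 TPM) were lower by at least 1, both named after values were seen. Of 17 basement membrane and matrix genes 7 were higher and none lower, fewer calls (41.2%) than over all genes, and with the 10 TPM filter 2 of 7 were higher. They were led by the metalloprotease gene Mmp1 at 8.34, 9.54 and 9.303 against 2.97, 2.97 and 3.05 TPM.

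The fat body, the fly counterpart of liver and adipose tissue, gave a mixed picture. Of 27 genes 13 were higher and 11 lower (median 0.15, and -0.0088 over 25 genes with the 10 TPM filter). Storage proteins were high, with Fbp1 at 22.5, 20.7 and 21.7 against 0.285, 0.212 and 0.3102 TPM. Lsp1alpha stood at 7.15, 7.29 and 7.62 against 0.0884, 0.176 and 0.08797 TPM. The 4 larval serum protein genes, a subset defined after values were seen, had a median of 2.93. For 1 of these 4 only the Chd1-deficient level was high enough for testing. The yolk protein genes, made in fat body and ovary, were among the most abundant of all. Yp1 stood at 9517, 9599 and 9693 against 7686, 7470.4 and 7391 TPM, Yp2 at 7319, 7098 and 7295 against 5011, 4858 and 4888 TPM and Yp3 at 9196, 8904 and 9234 against 4411, 4185 and 4266 TPM, log2 fold changes of 0.35, 0.56 and 1.09.

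Lipid synthesis and storage pointed the other way. Of 30 tested fatty acid synthesis and lipid droplet genes (32 in the files), 21 were lower, 5 higher and 4 not called, with a median of -0.22. Lsd-1, a lipid droplet coat protein that controls access of lipases, stood at 43.6, 41.7 and 42.01 against 107, 105 and 108 TPM, a log2 fold change of -1.32 with SE 0.041 and limma adjusted p = 1.7e-09. FASN1, the fatty acid synthase of the fat body, stood at 43.9, 44.4 and 44.2 against 111, 111 and 109 TPM, a log2 fold change of -1.31 with SE 0.039. Wild-type means of 33.02 and 40.9 TPM lay close to the Chd1-deficient values, so the elav>Chd1 libraries held the outlying level. The abundant members Desat1, a desaturase, and Lsd-2 fell by 0.26 and 0.18, and Dgat2 rose by 1.04. The sugar-responsive transcription factor gene sug stood at 20.4, 19.2 and 20.7 against 56.96, 56.4 and 58.4 TPM (wild-type mean 24.98 TPM), and fell by 1.49. Oenocyte and hydrocarbon genes were 10 higher and 13 lower of 28 (median 0.068), and 5 higher and 11 lower of 20 with the 10 TPM filter (median -0.23). Their elongase eloF stood at 24.3, 22.8 and 24.4 against 56.2, 54.4 and 57.01 TPM and the decarbonylase Cyp4g1, which makes cuticular hydrocarbons, at 582, 622 and 595 against 875, 876 and 879.7 TPM, with wild-type means of 18.96 and 268 TPM below both. Cyp4g1 is also the most abundant of the P450 enzymes, of which 26 of 60 tested were higher and 20 lower (median 0.14). With the 10 TPM filter the balance of these enzymes turned to 5 higher and 11 lower of 20 (median -0.24). Cyp6w1 fell most of the P450 genes, from 23.4, 23.03 and 23.96 TPM in elav>Chd1 to 6.27, 6.98 and 6.31 TPM.

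Genes of mitochondrial respiration were higher by a small step. Of 83 subunits of the respiratory complexes 77 were tested, 65 higher, 1 lower (none without Chd1-deficient library 2 or 3 or elav>Chd1 library 1 or 3 and with a replicate block) and 11 not called, with a median of 0.23. Divided after values were seen, the list held 14 paralogs with symbols ending in L (ND-MNLL, a subunit of complex I, is not one), whose 10 tested members (9 through the Chd1-deficient libraries alone) were all higher with a median of 2.36. COX4L stood at 7.88, 6.39 and 8.69 against 0.365, 0.1801 and 0.1802 TPM, COX7AL at 5.74, 4.69 and 3.87 against 0.296, 0.0974 and 0.0974 TPM and COX5BL at 5.59, 4.51 and 3.93 against 0.6599, 0 and 0.151 TPM. Of the other 67 tested subunits 55 were higher, with a median of 0.21, a highest value of 0.38 and summed levels, over all 69 in the files, of 38769.5 to 39934.1 TPM against 34534.5 to 35079.3 TPM. The most abundant, ATPsynC and ND-MLRQ, were not called, ATPsynC overlapping at 3411, 3345 and 3417 against 3439.5, 3408 and 3297 TPM.

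Other metabolic and digestive genes were less one-sided than the respiratory subunits. Of 18 citric acid cycle enzymes 8 were higher and 2 lower (1 without Chd1-deficient library 1 or 2 or elav>Chd1 library 2 or 3). Citrate synthase, kdn, rose by 0.36 and Idh fell by 0.42. Glycolysis had 4 of 15 higher and 6 lower, and its abundant members Gapdh2 and Eno stood at 1158, 1183 and 1165 against 1523, 1539.9 and 1540.0 TPM and 712, 717 and 724 against 877, 877 and 889 TPM, falls of 0.39 and 0.296. Of 29 tested sugar and trehalose genes 12 were higher and 9 lower, against 6 and 8 of 20 with the 10 TPM filter. The amylase gene Amy-p stood at 338, 335 and 333 against 198, 191 and 189 TPM and the sorbitol dehydrogenase gene Sodh-1 at 73.6, 69.9 and 74.5 against 26.2, 26.5 and 25.8 TPM. Glutathione and glycosyl transferases, which detoxify, had 27 of 52 higher and 7 lower (median 0.26, 0.16 over 70 genes with no filter), with GstD3 at 70.4, 76.02 and 77.6 against 20.8, 27.1 and 22.2 TPM and GstD2 at 13.2, 15.9 and 12.8 against 2.74, 2.87 and 4.78 TPM, while the abundant GstD1 fell by 0.39. Digestive enzymes of the gut had 26 of 50 higher and 17 lower (16 and 15 of 35 with the 10 TPM filter). The lysozyme gene LysX stood at 20.1, 22.8 and 18.1 against 3.97, 4.15 and 4.13 TPM, and the Jonah protease genes Jon99Cii and Jon66Ci at 1224, 1145 and 1200.3 against 1932, 1912 and 1967 TPM and 2.29, 1.99 and 1.88 against 7.32, 7.54 and 7.25 TPM. Of 14 tested Jonah genes, a subset defined after values were seen, 5 were higher and 9 lower.

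**Figure D3:**
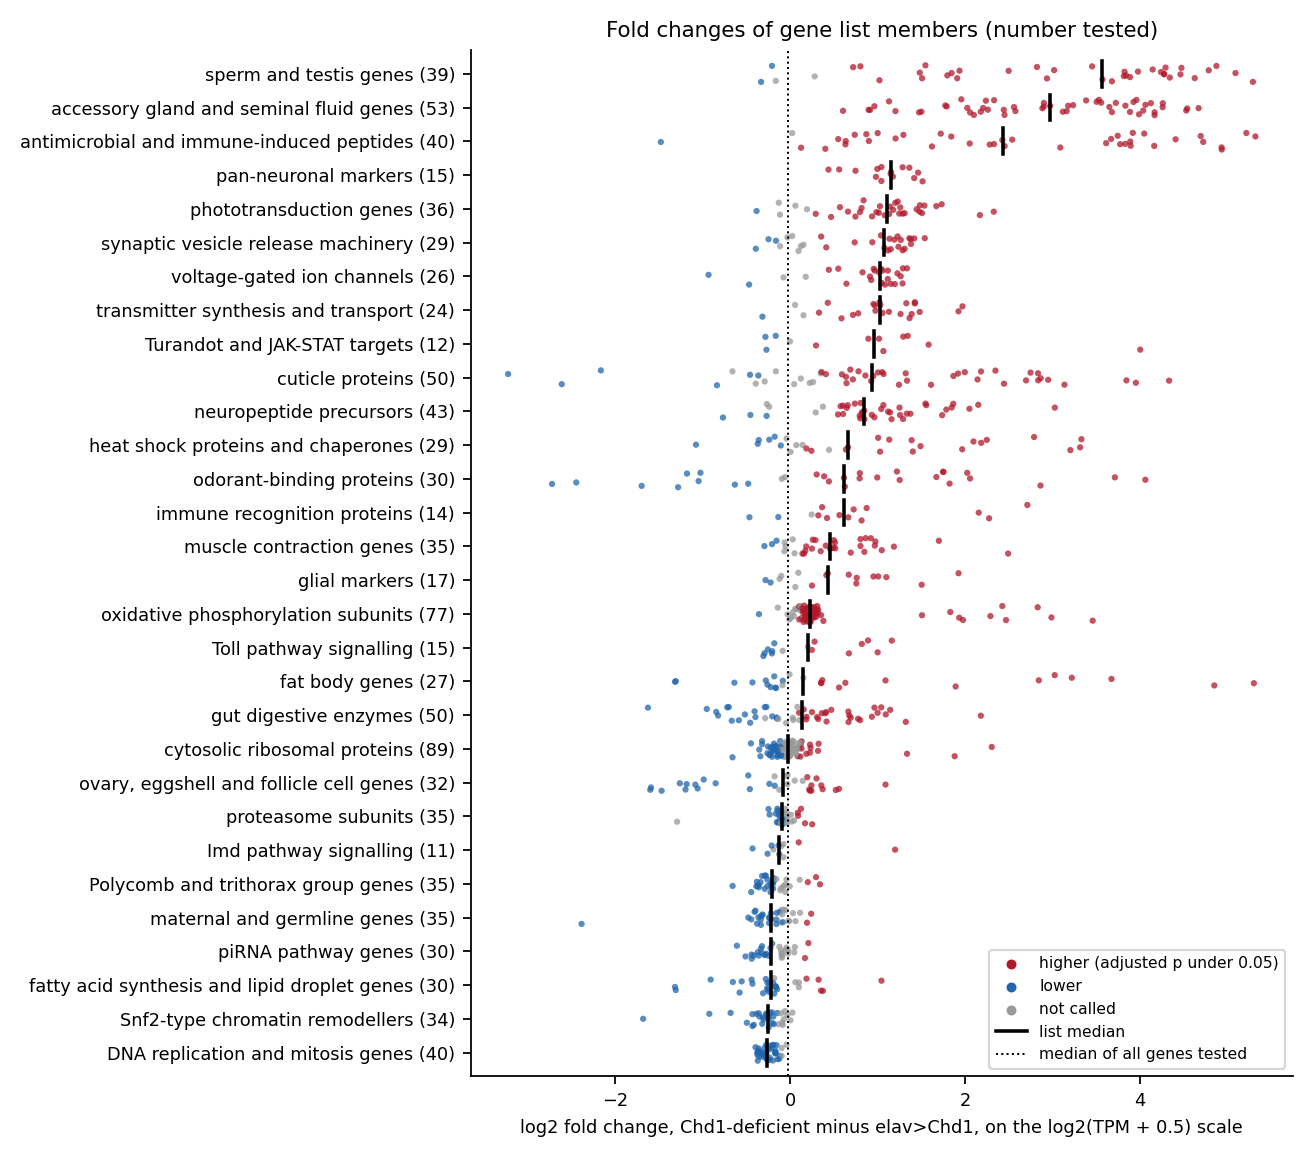
Log2 fold change of the tested members of 30 gene lists, Chd1-deficient minus elav>Chd1, 1 point per gene. Bars mark the list medians and the dotted line the median of all genes tested (-0.02). Sperm, accessory gland and antimicrobial peptide genes lie furthest to the right with medians of 3.57, 2.97 and 2.44, while DNA replication genes form a narrow band just below 0 with a median of -0.27.

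Eggshell and maternal genes held large falls among abundant genes. Of 32 ovary, eggshell and follicle cell genes, 14 were lower, 8 of them by at least 1, and 11 higher. The chorion genes, which build the outer eggshell late in egg formation from amplified gene clusters, were all lower. These 9 genes of the Cp series, grouped after values were seen, had a median of -1.09 and a range of -1.60 to -0.24. Their summed level was 6650 to 6936.9 TPM against 12744.1 to 13135.7 TPM, and 7111.5 to 8118.7 TPM in wild type. Their median against wild type was 0.90 for elav>Chd1 and -0.68 for Chd1-deficient. By the sum, the elav>Chd1 libraries thus held the outlying level. Cp38 stood at 834, 805 and 812 against 2569, 2443 and 2432 TPM, a log2 fold change of -1.602 with SE 0.045 and limma adjusted p = 8.3e-10, and Cp36 at 671, 674 and 679 against 1839, 1884 and 1892 TPM. Cp7Fa, at 58.5, 52.9 and 57.3 against 172, 169 and 170.2 TPM, fell by 1.59. From the cluster on chromosome 3L, Cp18 stood at 754, 753 and 747 against 1635, 1537 and 1529.6 TPM and Cp19 at 1007, 942 and 962 against 2105, 2026 and 2051 TPM, both named after values were seen, as was yellow-g, a gene of eggshell hardening, at 54.5, 55.3 and 56.04 against 133, 133 and 134 TPM. The vitelline membrane genes, which act earlier and build the inner layer, did not follow. Of 6, 5 were higher, with a median of 0.23. Vm26Aa, chosen after its values were seen, stood at 9062, 8637 and 8425 against 7738, 7171 and 7203 TPM, and its call was lost under median-ratio scaling, while Vm34Ca overlapped between groups.

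Maternal RNAs loaded into the egg were lower by small steps with 1 large exception. dhd, a germline thioredoxin that opens protamine disulfides in sperm chromatin, stood at 888, 950.2 and 878 against 4579.5, 4826 and 4799 TPM with a wild-type mean of 5288 TPM, a log2 fold change of -2.39 with SE 0.0397 and limma adjusted p = 2.8e-11. Of 35 tested maternal and germline genes 23 were lower and 2 higher (1 without Chd1-deficient library 2 or 3 or elav>Chd1 library 1), with a median of -0.22, and dhd alone was lower by at least 1. The localization factor gene exu fell by 0.48, the posterior determinant gene nos by 0.45 and the mitotic cyclin gene CycB by 0.3986. The posterior determinant gene osk, chosen after its values were seen, stood at 408, 436 and 428 against 544, 577 and 568 TPM. Of 30 tested piRNA pathway genes, which silence transposons in the germline, 16 were lower and 2 higher (median -0.22). The higher count was 1 without Chd1-deficient library 2 or 3 or elav>Chd1 library 1 or 2, and 1 with a replicate block. With the 10 TPM filter 16 of 28 piRNA genes were lower and 2 higher (median -0.24). Over all genes past that filter 3398 of 7472 were lower (median -0.11). nxf2 and the helicase gene spn-E stood at 17.9, 18.8 and 17.2 against 26.97, 28.1 and 27.9 TPM and 24.5, 25.7 and 26.7 against 35.04, 38.2 and 37.1 TPM.

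DNA replication and mitosis genes were lower in nearly every case, by small amounts. Of 40, 37 were lower, none higher and 3 not called, with a median of -0.27 and a range of -0.40 to -0.043. The origin recognition gene Orc1 stood at 70.9, 74.7 and 74.9 against 94.2, 97.8 and 94.8 TPM, the condensin gene SMC2 at 25.1, 26.9 and 25.8 against 32.6, 34.7 and 34.01 TPM and the cyclin gene CycA at 476, 506 and 503 against 604, 645 and 629 TPM. Summed levels were 5839 to 6093 TPM against 7094 to 7235 TPM, and 9132 to 9834 TPM in wild type.

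Chromatin genes were also mostly lower. Of 34 Snf2-type remodeller genes 25 were lower and none higher (median -0.25). After Chd1 itself, the largest falls were in okr, a Rad54-type recombination factor, at 5.94, 6.07 and 7.13 against 12.1, 12.6 and 12.9 TPM, which lies on the proximal flank of Chd1 described below, and in Mi-2, the ATPase of the NuRD complex, at 35.3, 37.8 and 38.5 against 60.3, 61.3 and 58.5 TPM. Of 24 genes for H3.3, histone chaperones and elongation factors, 18 were lower and 2 higher (median -0.17), with 1 higher under median-ratio scaling and without Chd1-deficient library 2 or elav>Chd1 library 1. Hira, the chaperone that deposits H3.3, fell by 0.48, Atu, of the Paf1 complex, by 0.58 and the chaperone gene Nap1 by 0.45, while Nlp, a nucleoplasmin, rose by 0.12. Of 35 Polycomb and trithorax group genes 23 were lower and 3 higher (median -0.21, 1 higher without Chd1-deficient library 3), including the histone methyltransferase gene E(z), which fell by 0.39. Replication-dependent histone genes had 5 higher (2 or 3 without Chd1-deficient library 1 or 2 or elav>Chd1 library 1 or 2) and 5 lower of 20 tested, and 1 higher and 5 lower of 14 with the 10 TPM filter. They are near-identical copies, so single copies cannot be read, and their summed level was 3942 to 4096 TPM against 4628 to 4687 TPM.

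Protein quality control was split. Of 29 tested heat shock and chaperone genes (6 through the Chd1-deficient libraries alone), 18 were higher, 14 by at least 1, and 6 lower (median 0.66). With the 10 TPM filter 9 were higher and 6 lower of 19, with a median of 0.14. The 5 tested Hsp70 copies, nearly identical to each other and so uncertain singly, were all higher with a median of 2.18. For 2 of these 5 only the Chd1-deficient level was high enough for testing, which favours a higher call. Summed levels over all 6 copies, tested or not, were 84.3 to 89.6 TPM against 31.5 to 32.8 TPM. The chaperonin gene Hsp60C stood at 5.43, 5.19 and 5.51 against 0.0731, 0.1003 and 0.101 TPM, and its paralog Hsp60B, needed for sperm formation and chosen after its values were seen, at 2.93, 3.19 and 3.21 against 0, 0.0228 and 0.0453 TPM. The small heat shock gene Hsp26 went the other way, at 798, 836 and 813 against 1733, 1699 and 1738 TPM, a log2 fold change of -1.08 with SE 0.028 and limma adjusted p = 4.6e-10. Proteasome subunits had 18 of 35 lower and 5 higher (median -0.09), where Rpn3 fell by 0.25 and the assembly factor gene Pomp rose by 0.25. Without Chd1-deficient library 1 the count of lower subunits was 11, and the count of higher ones was 3 without any other single library and with a replicate block. With the 10 TPM filter 18 of 34 subunits were lower and 4 higher, where 3398 of all 7472 genes tested were lower.

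Beside Chd1 itself, most tested genes on one flank of it were lower. Genes whose starts lie within 100000 bases of the start of Chd1 on its proximal side, towards the centromere, numbered 22, of which 18 were tested and 15 were lower (all genes 33.7%), with a median of -0.67. Bem46, the next gene, stood at 17.8, 18.2 and 16.8 against 28.6, 30.6 and 29.4 TPM, CG3542 at 15.5, 16.1 and 16.2 against 27.98, 26.8 and 28.8 TPM and the splicing factor gene Sf3b2 at 21.8, 24.2 and 22.8 against 34.7, 38.3 and 37.3 TPM. These genes and those that follow were named for their position after values were seen. SerRS, a tRNA synthetase, stood at 44.97, 46.5 and 45.3 against 63.3, 68.8 and 63.6 TPM, alpha4GT1 at 21.7, 21.6 and 20.5 against 33.2, 34.6 and 34.6 TPM and FASN2, a fatty acid synthase, at 5.09, 5.06 and 5.58 against 9.95, 10.5 and 10.5 TPM. The differences of these 6 ran from -0.91 to -0.51. In none did the groups overlap, which also holds for 7511 of the 7583 called genes of the whole comparison. FASN1, at the far end, is the gene given above with the lipid genes. CG17261 was the single higher gene of this side, at 7.76, 7.67 and 7.38 against 1.05, 2.47 and 1.98 TPM, a log2 fold change of 1.85 with SE 0.27, and CG17265 and snRNA:U5:23D were not called. Summed levels of the 22 genes were 263.5 to 270.5 TPM against 445.3 to 473.2 TPM, and 299.7 to 331.4 TPM in wild type. Their median was 0.36 for elav>Chd1 minus wild type and -0.26 for Chd1-deficient minus wild type, comparisons that share libraries with each other and with the one above. On the distal side 7 genes were tested, 4 lower and 2 higher, with a median of -0.14 and summed levels of 380.4 to 395.5 TPM against 398.5 to 410.2 TPM, and 497.5 to 548.9 TPM in wild type. The medians of these 7 genes against wild type were -0.39 for elav>Chd1 and -0.53 for Chd1-deficient, so both groups lay below wild type on that side.

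**Figure D4:**
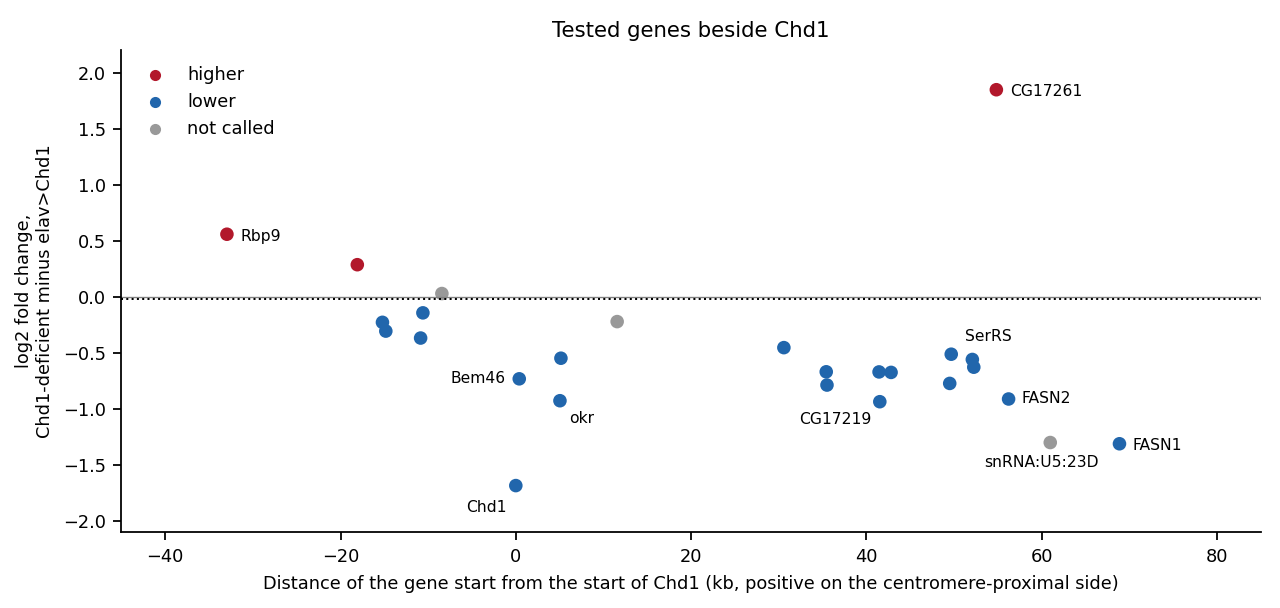
Log2 fold change (Chd1-deficient minus elav>Chd1, vertical axis) of tested genes against the distance of their start from the start of Chd1 (kilobases, horizontal axis). Genes on the proximal side, apart from CG17261, CG17265, FASN1 and snRNA:U5:23D, lie between -0.94 and -0.45, and those on the distal side between -0.37 and 0.56.

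In running windows of 15 tested genes along the chromosomes (10969 windows), 21 had a median of -0.5 or less and 291 a median of 1 or more. The lowest window of arm 2L, with a median of -0.67 and 14 of 15 genes below 0, was the one with Chd1 near its start. Only 1 window of the genome was lower than the lowest of those on the proximal side, that on the X chromosome with the chorion genes Cp7Fa, Cp36 and Cp38 and the germline gene otu, with a median of -0.84. The highest window, with a median of 3.399, lay on arm 2R and held spaw, whip, swif and boly, genes expressed in late male germ cells. Of these 4, named after values were seen, whip stood at 5.72, 6.88 and 6.22 against 0, 0.202 and 0.134 TPM and boly at 5.79, 5.43 and 5.42 against 0.139, 0.229 and 0.0916 TPM.

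The balance of calls varied between chromosomes. On the X, 551 of 1793 tested genes were higher and 622 lower (median -0.05), and 205 were higher by at least 1. The shares of higher genes were 37.1% on 2L, 35.8% on 2R, 35.3% on 3L and 33.9% on 3R, against 30.7% on the X. On chromosome 4 there were 83 tested genes, of which 34 were higher and 16 lower.

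The authors' deposited table for this comparison lists 3546 genes, 3276 higher and 270 lower. Of these, 2238 passed the filter used here, and all 2238 had the same sign here and in the authors' deposited table. Of the 1921 genes called here with a difference of at least 1, 1897 were in the authors' deposited table. A further 1308 of its genes lay below the filter, 1224 of them higher. Both come from the same libraries, so the second is no independent measurement of the first.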

How the data were processed

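RNA of heads from 3 genotypes was profiled with 3 libraries each. The authors deposited 1 column of TPM per library. Salmon and DESeq2 appear in the submitters' processing notes, with neither a version nor a role. A genome build is likewise not given in the sources used here. TPM are shares of a fixed total, so a level depends on all other transcripts, and depth is unknown. The authors also deposited a table of log2 fold changes with standard errors, a test score, and p-values for this comparison, limited per the file headers to genes of at least 1 on the log2 scale.

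Here log2(TPM + 0.5) was fitted by limma-trend over all 9 libraries with 1 mean per genotype. The filter was at least 1 TPM in at least 3 libraries, which 11094 of 16837 genes passed. Adjusted p is Benjamini-Hochberg over these, with a threshold of 0.05. Symbols were matched to Ensembl 115 (BDGP6.54), 16016 directly and 745 through a synonym. The members of the 60 gene lists, the tests and the rule for named genes were chosen with earlier results of these data known, so lists are described by counts and medians without set tests, and 38 list names were not matched. Named genes are Chd1 and elav, the 15 largest rises and falls with at least 5 TPM in the higher group and no overlap, and per list the 3 called members with the largest difference and the 2 most abundant. Any other gene carries a remark that it was picked with its values in view.

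Replicate numbers were checked as pairs: deviations of same-numbered libraries correlated at 0.108, 0.037 and 0.083, so they were not treated as paired. On simulated TPM tables (3 runs, 10183 to 10208 genes tested), 50 genes were changed per size of change and 9983 to 10008 were left unchanged. Of genes changed by 0.5, 76% to 84% were called, of those changed by 1, 96% to 98%, and of unchanged genes 0.11% to 0.15%. Far fewer genes were changed there than were called in the data, so the last share does not measure errors among the 7583 calls. Alternatives changed the filter, pseudocount (0.1 or 1), scaling (median ratio), libraries in the fit, replicate block and size of difference. Fits ran in limma 3.58.1 (R 4.3.3). Tables and plots were made with pandas 2.3.3 and matplotlib 3.10.9 under Python 3.11.15.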

Additional observations from a re-analysis of the deposited data

How the results depend on the processing

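The count of 7583 calls was 4994 with a filter of at least 10 TPM in 3 libraries, of which 1596 were higher, and 1921 with a difference of at least 1, of which 1751 were higher and 170 lower. The 10 TPM filter tests 7472 genes and leaves out those low genes that were mostly higher. Leaving out each library in turn gave 6794 to 7169 calls, 3619 to 3717 higher and 3077 to 3550 lower, and a Chd1 difference of -1.71 to -1.64. The replicate block gave 7421 calls (3806 higher, 3615 lower), and not every library correlated best with its own number (elav>Chd1 library 2 with Chd1-deficient library 3, 0.048). Median-ratio scaling gave 8262 calls, 45.5% of them higher against 50.7%, with the median of all genes at -0.05. A fit of only the 6 libraries gave 8227 calls and no filter gave 9139, 58.8% of them higher. Pseudocounts of 0.1 and 1 gave 7513 and 7620.

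Of the named genes, those that turned sign were uncalled throughout and close to 0. Median-ratio scaling turned ATPsynC to -0.026, Sesn to -0.00095 and Nurf-38 to -0.0062. Without 1 library the differences ran for CaMKII from -0.031 to 0.019, for red from -0.026 to 0.0081, for Mdh1 from -0.023 to 0.0043, for mys from -0.038 to 0.014, for Vm34Ca from -0.079 to 0.023, for Dpy-30L1 from -0.10 to 0.0019 and for ATPsynC from -0.014 to 0.017. The cause was not tested. Levels near 1 TPM limit the low genes most, since depth is unknown.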

Other observations

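Further gene lists, of ribosomal, hormonal, insulin, tubule and vacuolar ATPase genes, had medians from -0.11 to 0.094. Single members differed by far more, up to 2.55 in the Malpighian tubule list and from -1.49 to 2.05 in the insulin list. Of 89 tested cytosolic ribosomal protein genes 15 were higher and 32 lower, and of 93 in the files 4 did not reach the filter. The Chd1-deficient libraries alone brought 3 of the 89 past it. The higher ones included the low paralogs RpL10Aa (2.02, 2.45 and 2.31 TPM in the Chd1-deficient libraries) and RpS19b (3.16, 2.59 and 3.38 against 0.946, 1.02 and 0.744 TPM in Chd1-deficient against elav>Chd1 libraries). The most abundant gene of the list, RpL41, stood at 10397, 9749 and 10165 against 15331, 16406 and 16212 TPM, a log2 fold change of -0.66 with SE 0.11. Under median-ratio scaling 8 were higher. Mitochondrial ribosomal protein genes had 27 of 74 higher and 9 lower (16 lower under median-ratio scaling), with mRpL54 at 98.5, 99.7 and 98.9 against 71.8, 70.7 and 73.8 TPM and mRpL37 at 46.1, 46.7 and 46.04 against 68.3, 71.2 and 68.2 TPM. Ribosome biogenesis factors had 10 of 29 higher and 5 lower, with the pseudouridylation factor gene NHP2 at 236, 245 and 247 against 177, 187 and 181 TPM. The count of higher ones was 6 without Chd1-deficient library 2 or elav>Chd1 library 1.

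Ecdysone response genes had 8 of 22 tested higher and 5 lower (1 and 5 of 11 with a filter of at least 10 TPM in 3 libraries), with the nuclear receptor gene Eip78C at 4.34, 4.41 and 4.201 against 1.68, 1.88 and 1.81 TPM, and the count of lower ones was 3 without Chd1-deficient library 1 or 3 or elav>Chd1 library 2 or 3. Juvenile hormone genes had 1 of 14 higher (2 without Chd1-deficient library 1), the esterase gene Jhe at 2.09, 2.46 and 2.06 against 0.373, 0.453 and 0.444 TPM, and 5 lower. Insulin and nutrient response genes had 9 of 25 higher and 7 lower (10 lower under median-ratio scaling), with the translation repressor gene Thor at 512, 504 and 511 against 398, 379.7 and 372 TPM. Malpighian tubule genes had 5 of 17 tested higher and 6 lower (6 and 5 with a replicate block), with the tubule enzyme gene Uro at 31.8, 34.9 and 33.5 against 15.4, 16.1 and 16.6 TPM. Vacuolar ATPase subunits had 7 of 25 higher and 7 lower, and 4 of the 25 passed through the Chd1-deficient libraries alone. With the 10 TPM filter 3 were higher and 6 lower of 18. Higher members among the 25 include VhaM9.7-d and Vha68-3, at 2.62, 3.24 and 1.72 TPM and 1.72, 1.84 and 1.81 TPM in the Chd1-deficient libraries. These 2 rose by 2.25 and 2.02, and the abundant Vha13 fell by 0.11. All shares stand beside 34.7% higher and 33.7% lower over all tested genes, shares that varied with level.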
